A study of Mus musculus and Rattus norvegicus with 24 samples.

Results

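Translation initiation factors are the proteins that bring the initiator tRNA, the small ribosomal subunit and the mRNA together and find the start codon. The genes described here are the protein-coding genes of the mouse heart count table whose symbols begin with Eif1 to Eif6, including the eIF2 alpha kinases (Eif2ak) and the eIF4E-binding proteins (Eif4ebp). The rule gave 55 of the 54532 genes of that table, of which 22046 are protein-coding. By symbol, 50 of the 55 were also found among 17301 named genes of a rat cell table. Eif2s3y, Eif3j1, Eif3j2, Eif4g1 and Eif4e1b had no row of that name there.

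The study sequenced RNA from hearts and from cultured heart muscle cells. Mouse hearts came from 6 groups with 3 libraries each: control (ctrl) or cKO mice, with sham surgery, with TAC for 3 days, or with TAC for 7 days. TAC, transverse aortic constriction, narrows the aorta and loads the left ventricle with pressure, and cKO is the usual abbreviation for conditional knockout, here of Atf4. No source used here states the Cre driver or the age, sex and strain of the mice. The rat libraries came from neonatal rat ventricular myocytes cultured with bromodeoxyuridine (BrdU) and then infected in serum-free medium with adenovirus carrying GFP (adGFP, n = 3) or ATF4 (adATF4, n = 3). Nothing in the labels says that libraries of a group came from separate animals or cultures, so p-values measure the spread between these libraries.

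ATF4 and initiation are tied together in both directions. When one of 4 kinases phosphorylates the alpha subunit of eIF2, the exchange factor eIF2B is blocked and most translation falls, while the Atf4 mRNA itself is translated better. ATF4 then acts as a transcription factor in the nucleus, and Eif4ebp1, an inhibitor of cap-dependent initiation, is a known ATF4 target in mouse pancreatic beta cells. In heart muscle, changes in initiation factors are studied because a pressure-loaded cardiomyocyte grows by making more protein.

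Atf4 was checked first. Its level in sham hearts was 66.2, 68.8 and 34.3 CPM (read counts relative to the TMM-scaled library total) in the ctrl libraries and 21.0, 26.3 and 23.2 CPM in the cKO libraries. At TAC 3 d the ctrl libraries held 90.9, 80.2 and 84.7 CPM and the cKO libraries 24.8, 27.1 and 24.8 CPM. At TAC 7 d they held 70.5, 79.9 and 70.3 CPM and 27.1, 31.2 and 26.95 CPM. Every cKO library therefore read below every ctrl library, although one label heading of the cKO mouse samples speaks of overexpression. The log2 difference was -1.26 ± 0.18 (SE) in sham, -1.74 ± 0.19 at TAC 3 d and -1.37 ± 0.18 at TAC 7 d, with adjusted p of 0.0487, 0.000334 and 0.00423 (edgeR quasi-likelihood test). In the rat cells Atf4 stood at 276 ± 31.1 FPKM (SD, n = 3; fragments per kilobase of transcript, scaled for depth) with adGFP and at 2563 ± 143 FPKM (SD, n = 3) with adATF4.

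Total counts ran from 15106975 to 18112798 per mouse library. The share of counts from the mitochondrial genome was 10.6% in ctrl TAC 3 d replicate 3 and between 14.5% and 23.0% in the other mouse libraries. That library also held the highest summed level of 7 fibroblast markers, 7940 CPM, and the ctrl TAC 3 d group ranged down from it to 1644 CPM. Most of the 7940 CPM came from the collagen genes Col1a1, at 3690 CPM, and Col1a2, at 3375 CPM. The same sum was 731 to 809 CPM in ctrl sham, 734 to 922 CPM in cKO sham, 1018 to 1185 CPM in cKO TAC 3 d, 769 to 1291 CPM in ctrl TAC 7 d and 1296 to 2141 CPM in cKO TAC 7 d. All 8 ventricular cardiomyocyte markers were read in both species. Their sum was 64975 to 72372 CPM in ctrl sham, 59842 to 66661 CPM in cKO sham, 35004 to 60452 CPM in ctrl TAC 3 d, 62506 to 70064 CPM in cKO TAC 3 d, 59321 to 68998 CPM in ctrl TAC 7 d and 43760 to 56462 CPM in cKO TAC 7 d. In this sum the ctrl TAC 3 d libraries were thus below ctrl sham and cKO TAC 3 d, and the cKO TAC 7 d libraries below cKO sham and ctrl TAC 7 d. Myh6, the largest member, fell from a mean of 34696 CPM in ctrl sham to 21902 CPM in ctrl TAC 3 d. Between cKO sham and cKO TAC 7 d it fell from 32536 to 24004 CPM. Not all members fell: Actc1 rose from 10636 to 13425 CPM and from 9734 to 12095 CPM between the same groups. Ryr2 rose from 1142 to 1391 CPM between the cKO groups. In these bulk samples, fewer cells of a type, less RNA per cell and changes of single marker genes cannot be told apart.

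Forced ATF4 raised much of the initiation machinery in rat myocytes, and did so unevenly. With adATF4, 29 of the 50 genes rose and 1 fell at an adjusted p under 0.05 (limma on log2(FPKM + 1), adjusted over 10571 genes). Over all genes tested, 50.6% were called, 24.2% higher and 26.4% lower, so calls were common in both directions among genes of every kind. The median log2 fold change was 0.37 over the initiation factors and -0.04 over all genes. Their share of all summed FPKM was 0.736% to 0.826% in the adGFP libraries and 1.08% to 1.19% in the adATF4 libraries, with no overlap. Scaling the libraries to a shared median again gave 29 higher and 1 lower. Of the 30 calls, 22 were kept whichever library was left out.

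**Figure D1:**
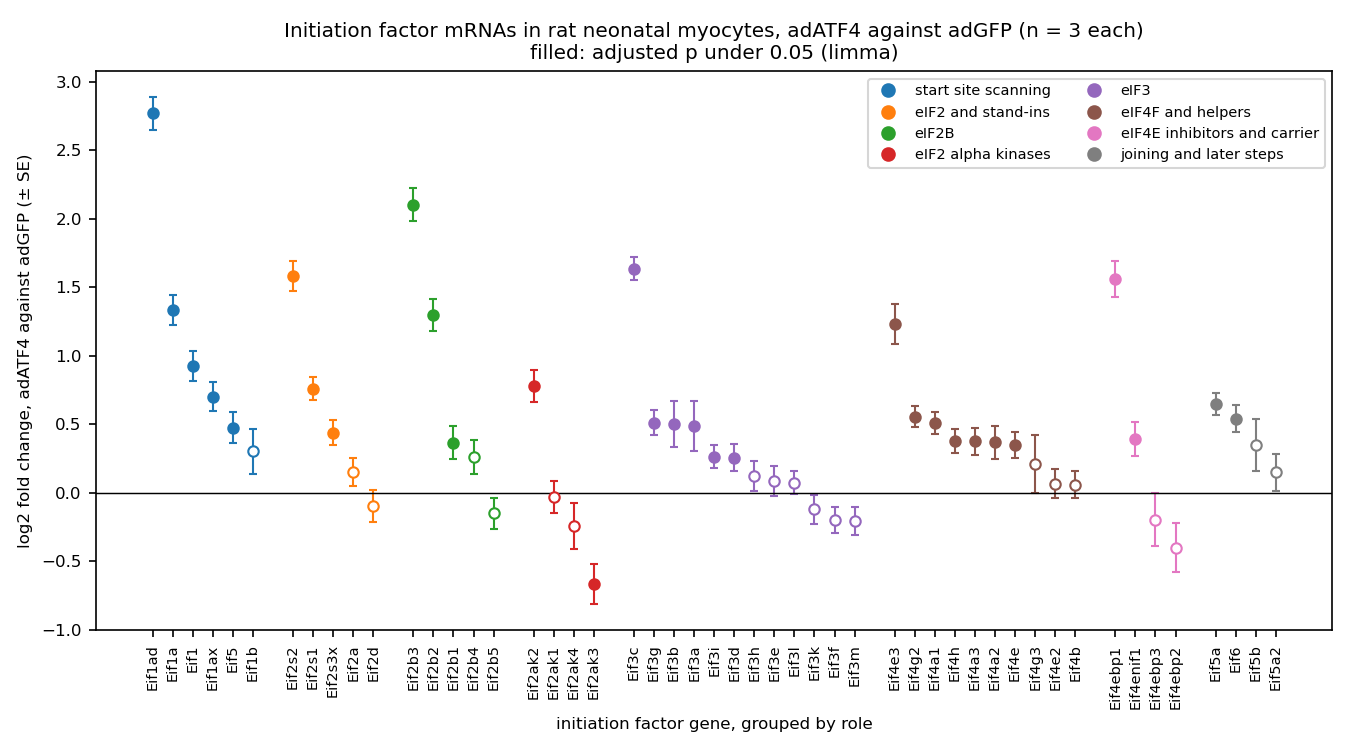
Log2 fold change of each initiation factor mRNA in adATF4 against adGFP rat myocytes (vertical axis, ± SE, n = 3 per group), with genes on the horizontal axis grouped and coloured by role; filled points have an adjusted p under 0.05 (limma). Eif1ad stands highest, at 2.77, and Eif3c and Eif4e3 stand far above the others of their roles. Eif2ak3 is the single filled point below 0, at -0.67.

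The largest rise was that of Eif1ad. It encodes a protein with an eIF1A-like domain, by which it is grouped here with the scanning factors, but its human counterpart is known for late maturation of the small ribosomal subunit. Eif1ad was at 12.9, 10.7 and 14.3 FPKM with adGFP and at 94.6, 86.0 and 93.9 FPKM with adATF4. The groups were far apart, by 2.77 ± 0.12 (SE) on the log2 scale with adjusted p = 1.05e-07 (limma). The scanning factors proper hold the small subunit open while it searches for the start codon. Eif1a, which encodes eIF1A itself, was at 68.2, 55.6 and 68.6 FPKM with adGFP and at 174, 147 and 167 FPKM with adATF4, a log2 rise of 1.33 ± 0.11. Eif1, whose product guards the choice of start codon, went from 64.1, 65.5 and 82.6 FPKM to 139, 128 and 135 FPKM, a rise of 0.92 ± 0.11. Eif1ax, the X-linked copy of the eIF1A gene, rose by 0.70 ± 0.11 and Eif5, the activator of GTP hydrolysis by eIF2, by 0.47 ± 0.11. Eif1a and Eif1ax encode nearly identical proteins, so how reads were split between them is uncertain. Only Eif1b of these 6 genes did not pass the test, at 0.30 ± 0.16.

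The trimeric factor eIF2 carries the initiator tRNA, and genes for all 3 of its subunits rose. Eif2s2, the beta subunit, was at 150, 152 and 170 FPKM with adGFP and at 510, 402 and 511 FPKM with adATF4, a log2 rise of 1.58 ± 0.11. Eif2s1, the alpha subunit that the kinases phosphorylate, was at 111, 107 and 116 FPKM and then at 194, 179 and 194 FPKM, a rise of 0.76 ± 0.08. Neither pair of groups overlapped, but the share of all rat genes with separate groups was not counted. Eif2s3x, the gamma subunit, rose by 0.44 ± 0.09. Eif2a and Eif2d, which can deliver tRNA without eIF2, did not pass the test, at 0.15 ± 0.10 and -0.10 ± 0.12.

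The exchange factor eIF2B, which recharges eIF2 with GTP, is built from 5 different subunits, and these did not move as one. Eif2b3, the gamma subunit, was at 14.05, 15.7 and 14.2 FPKM with adGFP and at 69.7, 57.0 and 72.8 FPKM with adATF4, a log2 rise of 2.10 ± 0.12. Eif2b2, the beta subunit, went from 22.6, 27.9 and 28.3 FPKM to 60.6, 71.0 and 65.5 FPKM, a rise of 1.30 ± 0.12. Both rises were kept with every library left out. Eif2b1 rose by 0.37 ± 0.12, a call that was lost without adGFP replicate 2 (adjusted p = 0.130, limma). Eif2b4, from 24.7 ± 3.28 to 29.6 ± 1.53 FPKM (SD, n = 3), and Eif2b5, the catalytic subunit, from 33.5 ± 3.98 to 29.9 ± 0.88 FPKM (SD, n = 3), did not pass the test.

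Of the 4 kinases, each of which senses a different stress, 1 rose and 1 fell. Over all rat genes tested, 24.2% were called higher and 26.4% lower, so this count only describes the kinases. Eif2ak2, or PKR, the sensor of double-stranded RNA, was at 60.1, 70.0 and 59.7 FPKM with adGFP and at 122, 93.5 and 114 FPKM with adATF4, a rise of 0.78 ± 0.12. Eif2ak3, or PERK, the sensor of unfolded protein in the endoplasmic reticulum, went from 12.0, 9.33 and 11.5 FPKM to 6.30, 6.68 and 6.44 FPKM and fell by 0.67 ± 0.15. These groups did not overlap for either gene, with the same limit that separate groups were not counted over all rat genes. Eif2ak1, or HRI, the heme-regulated kinase, was at 25.7 ± 1.42 and 25.1 ± 2.72 FPKM (SD, n = 3) and did not pass the test. Eif2ak4, or GCN2, the sensor of uncharged tRNA, was at 6.77 ± 1.37 and 5.49 ± 0.14 FPKM (SD, n = 3) and did not pass it either.

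Among the 12 eIF3 genes found, which encode the scaffold on the small subunit, 6 rose and none fell. The shares over all rat genes tested were 24.2% higher and 26.4% lower. Eif3c stood apart, at 129, 135 and 139 FPKM with adGFP and at 442, 395 and 425 FPKM with adATF4, a log2 rise of 1.64 ± 0.08 and the largest within eIF3. The next was Eif3g at 0.51 ± 0.09, followed by Eif3b, Eif3a, Eif3i and Eif3d at 0.50 to 0.26. Of these, 4 lost the call when 1 library was left out: Eif3a and Eif3i without adATF4 replicate 1 (adjusted p = 0.138 and 0.0844), Eif3b without adATF4 replicate 3 (0.0868) and Eif3d without adATF4 replicate 2 (0.131, limma). Of the 6 fits with 1 library left out, Eif3b and Eif3i kept the call in 3 each, Eif3a in 2 and Eif3d in 1. The other 6 eIF3 genes lay between -0.21 (Eif3m) and 0.12 (Eif3h). The rat row named Eif3j, a symbol absent from the mouse table, was at 0.15 ± 0.23.

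The cap-binding complex eIF4F and its helpers showed 7 rises among 10 genes, where 24.2% of all genes were called higher. Eif4e3, an atypical cap-binding protein, was at 12.0, 8.53 and 11.2 FPKM with adGFP and at 27.7, 24.9 and 25.5 FPKM with adATF4, a log2 rise of 1.23 ± 0.14. Eif4g2, an eIF4G relative that does not bind eIF4E, went from 177, 169 and 183 FPKM to 264, 256 and 259 FPKM, a rise of 0.55 ± 0.08. Eif4e, the main cap-binding protein, was at 73.7, 61.8 and 69.1 FPKM and then at 86.5, 82.5 and 91.6 FPKM, and its rise of 0.35 ± 0.10 was lost without adGFP replicate 2 (adjusted p = 0.0662, limma). The helicase genes Eif4a1, Eif4a2 and Eif4a3 rose by 0.51 ± 0.08, 0.37 ± 0.12 and 0.37 ± 0.10, and Eif4h, a helicase cofactor, by 0.38 ± 0.09. The Eif4a2 groups overlapped, and its call was lost without adATF4 replicate 1 (adjusted p = 0.111, limma).

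The inhibitors of eIF4E did not move together. Eif4ebp1, which blocks eIF4E until mTORC1 phosphorylates it, was at 178, 173 and 130 FPKM with adGFP and at 441, 533 and 438 FPKM with adATF4, a log2 rise of 1.56 ± 0.13 (adjusted p = 7.24e-06, limma). Eif4ebp2, its close relative, was at 9.63, 10.3 and 14.05 FPKM and then at 8.06, 9.85 and 6.96 FPKM, a log2 difference of -0.40 ± 0.18 that did not pass the test (adjusted p = 0.0864, limma). Eif4ebp3 was at -0.20 ± 0.19, and Eif4enif1, the nuclear carrier of eIF4E, rose by 0.39 ± 0.13, a call lost without adATF4 replicate 3 (adjusted p = 0.106, limma). Of the factors of later steps, Eif5a, which helps ribosomes through difficult peptide bonds, rose from 356, 356 and 353 FPKM to 582, 530 and 562 FPKM, by 0.65 ± 0.08. Eif6, which keeps the large subunit from joining too early, rose by 0.54 ± 0.10. Eif5b and Eif5a2 did not pass the test, at 0.35 ± 0.19 and 0.15 ± 0.14.

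**Figure D2:**
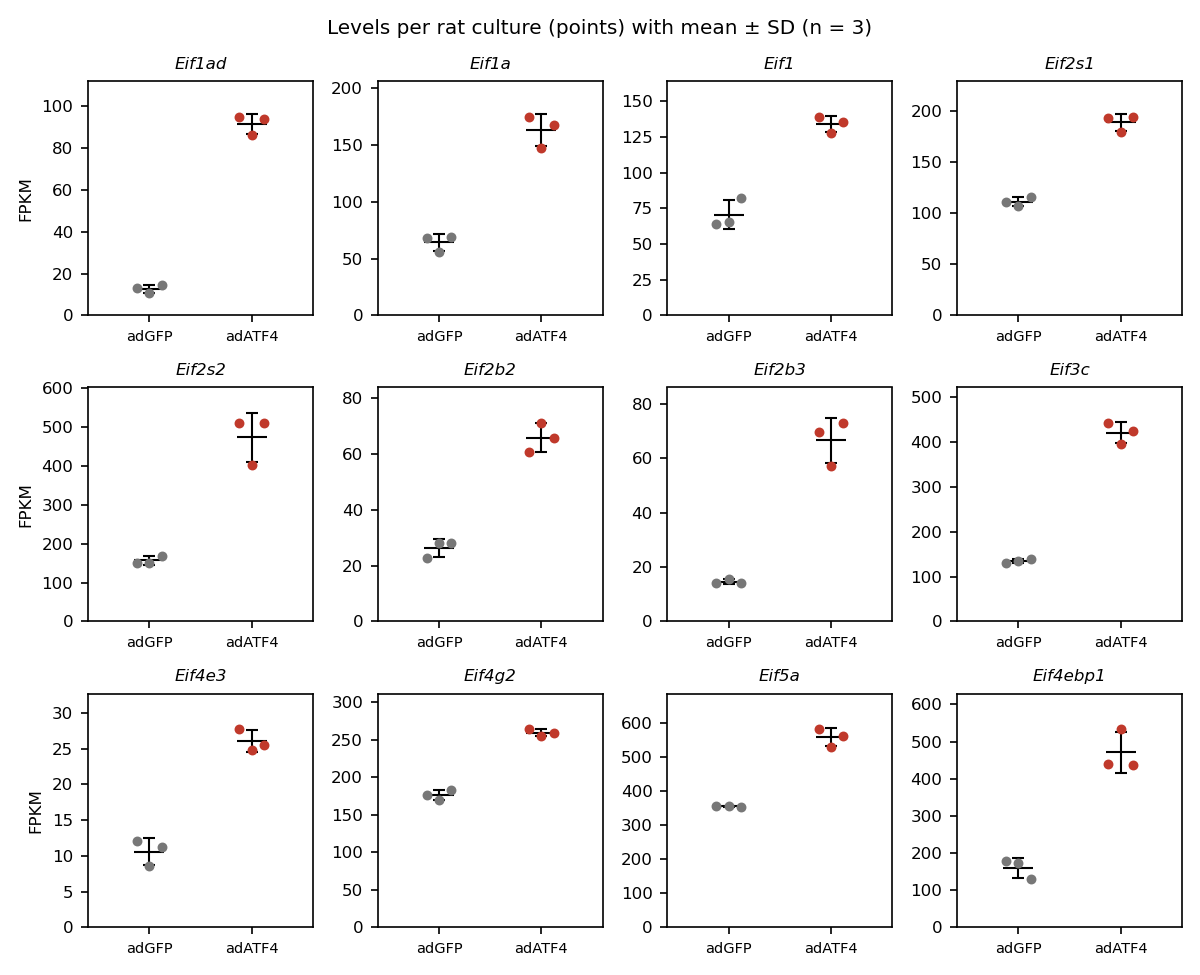
FPKM in each of the 6 rat libraries (points, linear axis from 0) for 12 called genes, with mean ± SD (n = 3) for adGFP (grey) and adATF4 (red). In all 12 the lowest adATF4 library lies above the highest adGFP library, and for Eif1ad the means are 12.6 and 91.5 FPKM. The 12 genes were chosen by smallest p, so this separation follows largely from the choice.

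Marker levels moved in these cultures as well. Summed levels of 7 fibroblast markers ran from 501 to 546 FPKM in the adGFP cultures and from 214 to 218 FPKM in the adATF4 cultures. Those of 5 smooth muscle and pericyte markers ran from 78.1 to 91.2 and from 175 to 191 FPKM. Only Cnn1 of these 5 was higher with adATF4, at means of 41.7 FPKM with adGFP and 160 FPKM with adATF4. The means of Myh11, Rgs5, Pdgfrb and Kcnj8 were lower with adATF4. Summed levels of the 8 cardiomyocyte markers ran from 21444 to 23526 and from 19470 to 19781 FPKM. The part of these shifts in the initiation factor values was not tested.

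Promoter sequences are shown for the 4 genes with the largest rat folds that have a window in the RefSeq table, since theirs were the largest rises with a sequence at hand. Eif2b3, Eif4ebp1 and Eif1a, with log2 rises of 2.10, 1.56 and 1.33, have no window there, so the motif counts do not cover them. They are the 250 bases before the start of the mouse gene on GRCm38.p6, read 5′ to 3′ along the gene's strand, with capitals for the letters TGACG on either strand, a core shared by the sites of ATF and CREB factors. The windows are chr19:5366563-5366812 on the plus strand for Eif1ad, chr7:126566367-126566616 on the minus strand for Eif3c, chr2:154892907-154893156 on the minus strand for Eif2s2 and chr12:85219231-85219480 on the plus strand for Eif2b2.
Eif1ad: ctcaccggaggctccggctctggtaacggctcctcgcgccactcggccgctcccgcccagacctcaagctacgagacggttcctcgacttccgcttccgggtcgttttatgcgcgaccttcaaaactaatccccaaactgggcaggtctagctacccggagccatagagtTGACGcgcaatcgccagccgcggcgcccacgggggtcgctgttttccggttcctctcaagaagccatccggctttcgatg
Eif3c: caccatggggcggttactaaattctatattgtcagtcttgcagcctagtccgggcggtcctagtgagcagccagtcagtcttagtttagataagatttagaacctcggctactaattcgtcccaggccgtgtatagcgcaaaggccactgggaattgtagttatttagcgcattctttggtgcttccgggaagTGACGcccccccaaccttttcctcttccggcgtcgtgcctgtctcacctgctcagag
Eif2s2: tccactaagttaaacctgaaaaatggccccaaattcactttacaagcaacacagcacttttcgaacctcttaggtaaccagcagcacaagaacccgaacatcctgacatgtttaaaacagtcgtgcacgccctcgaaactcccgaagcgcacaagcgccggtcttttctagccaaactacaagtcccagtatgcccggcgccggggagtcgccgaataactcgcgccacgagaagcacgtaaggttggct
Eif2b2: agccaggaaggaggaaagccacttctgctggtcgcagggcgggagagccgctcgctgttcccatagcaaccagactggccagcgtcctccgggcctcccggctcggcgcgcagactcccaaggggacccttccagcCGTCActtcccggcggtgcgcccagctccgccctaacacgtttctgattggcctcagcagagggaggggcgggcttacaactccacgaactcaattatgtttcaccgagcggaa

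Eif1ad, Eif3c and Eif2b2 each held 1 match to TGACG and Eif2s2 held none. The longer motif TGATGNAA, the composite ATF and C/EBP site that ATF4 binds, was in none of the 4. Over 43 initiation factor genes with a window, 22 (51.2%) held TGACG and 1 (2.33%) held TGATGNAA, on either strand and in any of a gene's windows. Over all 27025 genes with a window, the shares were 19.8% and 3.91%. Neither motif can lie inside the other. The windows are mouse sequence and the folds are from rat cells, and base composition was not matched between the 2 sets of windows.

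In mouse hearts the same genes were far steadier. Of the 55, 54 had enough reads to be tested. Eif4e1b, an oocyte form of eIF4E, had 0 or 1 count in every library, and Eif4ebp3 passed the filter with only 1 to 13 counts. Eif2s3y, the Y-linked copy of the eIF2 gamma gene, was read in all 18 libraries, with 594 to 1196 counts. The genes together took 0.558% ± 0.001 (SD, n = 3) of counts in ctrl sham, 0.566% ± 0.011 in cKO sham, 0.607% ± 0.020 in ctrl TAC 3 d, 0.557% ± 0.024 in cKO TAC 3 d, 0.587% ± 0.012 in ctrl TAC 7 d and 0.594% ± 0.020 in cKO TAC 7 d. These are shares of all counts, mitochondrial reads included. Mitochondrial reads made up 21.8% to 23.0% of counts in ctrl sham and 10.6% to 18.2% in ctrl TAC 3 d. Their part in the shares was not tested.

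Per kilobase of gene length, Eif1 was the most abundant, at a mean of 169 CPM per kb over the 18 libraries (98.3 to 227). It was followed by Eif5a at 123 (106 to 143), Eif3h at 99.0 (80.3 to 145), Eif4g2 at 83.4 (62.1 to 99.2) and Eif4g1 at 79.3 (60.0 to 96.5). The ranges of neighbours among these 5 overlap. The lengths are those given with the counts, such as 1612 bases for Eif3h, 6719 for Eif3e and 6520 for Eif2b3. They need not match the mRNA made in hearts, and the order depends on them. The lowest of the tested genes were Eif4ebp3 at 0.56 CPM per kb, Eif5a2 at 0.70, Eif2ak4 and Eif3j2 at 1.35 each, and Eif2b3 at 1.72. Eif2b3 thus read lowest of the eIF2B subunits, below Eif2b1 at 8.37, Eif2b2 at 12.5, Eif2b4 at 17.4 and Eif2b5 at 21.6 CPM per kb. The kinases ran from Eif2ak4 to Eif2ak1 at 5.80 CPM per kb.

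**Figure D3:**
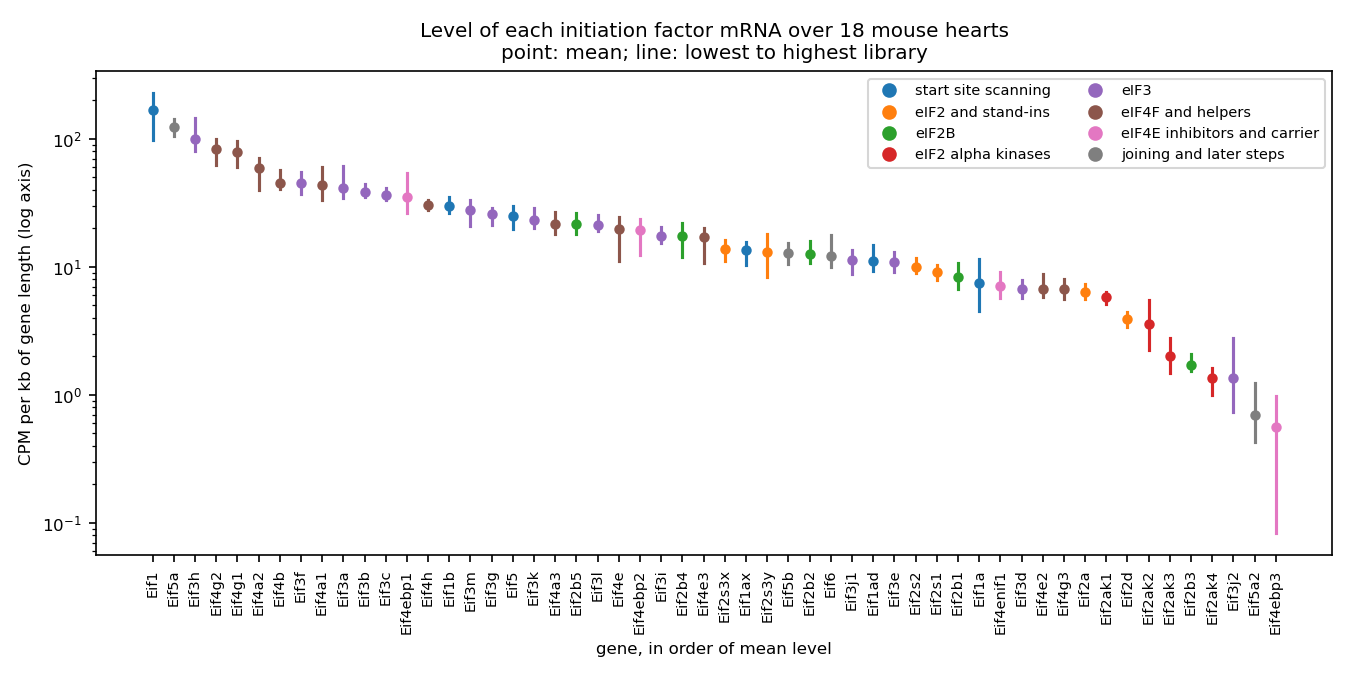
Level of each tested initiation factor mRNA in the 18 mouse heart libraries, in CPM per kb of gene length on a log axis, with the mean as a point and the lowest to highest library as a line, in order of the mean. Levels span from 169 CPM per kb for Eif1 to 0.56 for Eif4ebp3, and the lines of neighbours overlap except between Eif2ak1 (5.11 to 6.32) and Eif2d (3.38 to 4.43).

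Loss of Atf4 in sham hearts left these mRNAs close to ctrl. None of the 54 genes was called, where 0.0193% of all 15535 genes tested were (edgeR; DESeq2 also called 0, and 1 gene had an unadjusted p under 0.05). Log2 differences were within ±0.20 for 49 of the 54. The genes most raised by ATF4 in the rat cells gave log2 differences of 0.14 ± 0.12 for Eif1ad, -0.01 ± 0.13 for Eif2b3, -0.05 ± 0.08 for Eif3c, -0.04 ± 0.10 for Eif2s2 and -0.08 ± 0.17 for Eif4ebp1.

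At TAC 3 d, 3 of the 54 genes were lower in cKO than in ctrl hearts and 2 were higher, 9.26% where 17.1% of all genes were called. Eif1a, on mouse chromosome 18, was at 28.9, 24.8 and 33.2 CPM in ctrl and 15.4, 21.9 and 18.0 CPM in cKO hearts. All cKO libraries were below all ctrl libraries, by a log2 difference of -0.66 ± 0.14 (adjusted p = 0.00673, edgeR), and this call alone of the 5 was kept with every library left out in turn. A fit of these 2 groups by themselves gave it an adjusted p of 0.105 and called none of the 54 genes (edgeR). Eif2ak2, on chromosome 17, was at 19.4, 19.9 and 27.9 CPM in ctrl and 13.9, 12.5 and 15.6 CPM in cKO hearts, lower by a log2 difference of -0.68 ± 0.18 (adjusted p = 0.0179, edgeR). Eif2ak3, on chromosome 6, was at 13.6, 12.9 and 16.8 CPM in ctrl and 9.03, 10.8 and 9.78 CPM in cKO hearts, a difference of -0.55 ± 0.14 (adjusted p = 0.0174, edgeR). None of these groups overlapped, and groups were separate in either direction for 11 of the 54 genes and 30% of all genes.

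The 2 genes that were higher in cKO hearts at TAC 3 d were also called lower than sham in ctrl hearts. Both comparisons use the same ctrl TAC 3 d libraries, so low values there enter both, and the 2 results are not independent. Eif1, on chromosome 11, was at 337, 318 and 206 CPM in ctrl and 414, 475 and 351 CPM in cKO hearts, higher by 0.53 ± 0.16 on the log2 scale (adjusted p = 0.0298, edgeR). Eif3f, on chromosome 7, was at 115, 123 and 113 CPM in ctrl and 156, 147 and 131 CPM in cKO hearts, higher by 0.30 ± 0.09 (adjusted p = 0.0330, edgeR). Without ctrl TAC 3 d replicate 3, the library with the highest fibroblast sum, adjusted p was 0.146 for Eif1, 0.144 for Eif3f, 0.0930 for Eif2ak2 and 0.0758 for Eif2ak3 (edgeR). Of the 6 fits with 1 library left out, Eif2ak3 kept its call in 4, Eif1 and Eif2ak2 in 3 each and Eif3f in 2. The split of 2 higher and 3 lower became 0 higher and 8 lower when library sizes replaced TMM, a scaling that moved the median of all genes by -0.22. The sums of cardiomyocyte and fibroblast markers and of 6 markers of dividing cells were apart between these groups too, the last at 77.6 to 156 CPM in ctrl and 4.502 to 19.5 CPM in cKO hearts, and their part was not tested. In the authors' deposited table, the members with an adjusted p under 0.05 in this comparison were Eif1a, at 0.0317, and Eif2ak2, at 0.0348.

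Eif1a was also among the genes that ATF4 raised in the rat cells, and others with large rises there were not called in these hearts. At TAC 3 d the log2 difference between cKO and ctrl was 0.23 ± 0.12 for Eif1ad, 0.09 ± 0.13 for Eif2b3, 0.11 ± 0.09 for Eif2b2, 0.02 ± 0.08 for Eif3c, -0.11 ± 0.10 for Eif2s2 and -0.07 ± 0.17 for Eif4ebp1, and none of these 6 passed the test. Eif4ebp1 was at 86.7, 88.1 and 92.7 CPM in ctrl and 74.6, 92.0 and 87.5 CPM in cKO hearts, so the groups overlapped. Eif2s1 was at 46.7, 50.3 and 47.2 CPM in ctrl and 43.0, 42.3 and 49.9 CPM in cKO hearts, also overlapping. The other eIF2B subunits differed by 0.17 ± 0.13 for Eif2b1, 0.33 ± 0.15 for Eif2b4 and 0.24 ± 0.10 for Eif2b5, and the kinases Eif2ak1 and Eif2ak4 by 0.06 ± 0.09 and -0.01 ± 0.17.

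At TAC 7 d none of the 54 genes was called between cKO and ctrl hearts, where 0.257% of all genes were (edgeR; 10 had an unadjusted p under 0.05, and DESeq2 called 1). The gene DESeq2 called was Eif4e, at 128, 128 and 139 CPM in ctrl and 89.0, 67.0 and 90.9 CPM in cKO hearts. Every cKO library was below every ctrl library, by a log2 difference of -0.68 ± 0.18 that edgeR gave an adjusted p of 0.10, and of 0.0953 to 0.476 with 1 library left out. Groups were separate in either direction for 11 of the 54 genes and 23.7% of all genes. The same groups were apart in the cardiomyocyte sum, 59321 to 68998 CPM in ctrl and 43760 to 56462 CPM in cKO hearts, and in the fibroblast sum, 769 to 1291 and 1296 to 2141 CPM, and the part of these was not tested. Replicate 2, the cKO library lowest in Eif4e, also had the lowest mitochondrial share of its group, 14.5%. The adjusted p was 0.0161 with DESeq2 and 0.00041 without the filter on low counts (edgeR), and Eif4e was the one member with an adjusted p under 0.05 in the authors' deposited table (0.000874). In sham hearts, Eif4e was at 148, 137 and 147 CPM in ctrl and 124, 122 and 120 CPM in cKO libraries, a difference of -0.24 ± 0.18 that did not pass the test. At TAC 3 d it was at 131, 146 and 77.4 CPM and 108, 100 and 132 CPM, with overlap. Eif1a, lower in cKO hearts at TAC 3 d, was at 24.6, 20.4 and 23.7 CPM in ctrl and 26.1, 33.2 and 28.0 CPM in cKO hearts at TAC 7 d, a difference of 0.35 ± 0.14 that did not pass the test. Eif2ak2 was at 16.9, 20.0 and 27.9 CPM and 22.4, 24.0 and 27.6 CPM, so the groups overlapped. Eif4ebp1 was at 71.2, 57.8 and 68.2 CPM in ctrl and 67.5, 119 and 72.1 CPM in cKO hearts, with replicate 2 alone high among the latter and a difference of 0.39 ± 0.17 that did not pass the test. The eIF2B subunits differed by -0.23 ± 0.15 for Eif2b4 to 0.16 ± 0.13 for Eif2b3, and none was called.

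**Figure D4:**
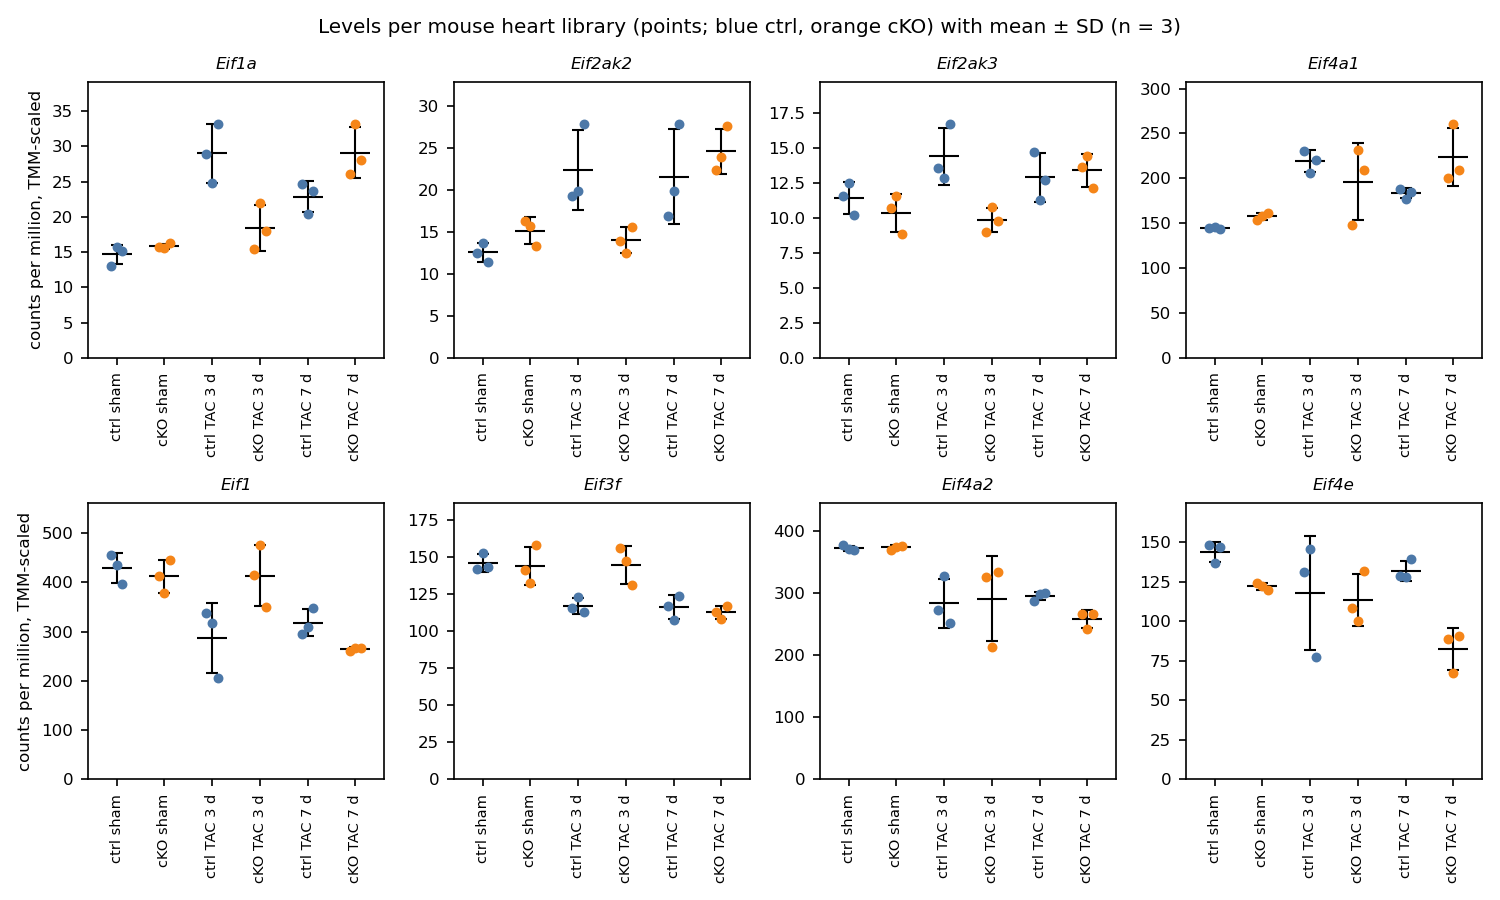
TMM-scaled CPM in each mouse heart library (points, linear axis from 0; blue ctrl, orange cKO) for 8 genes named in the comparisons, with mean ± SD (n = 3). Eif1a and Eif2ak2 are high in ctrl TAC 3 d and near sham in cKO TAC 3 d, with means of 29.0 against 18.4 CPM for Eif1a, while at TAC 7 d both genotypes lie above their shams; Eif4e is lowest in cKO TAC 7 d, at a mean of 82.3 CPM.

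A small set of these mRNAs differed between TAC and sham hearts. In ctrl hearts at TAC 3 d, 5 genes rose and 4 fell against sham, 16.7% of the 54 where 27.2% of all genes were called. Eif1a went from 13.1, 15.7 and 15.2 CPM in sham to 28.9, 24.8 and 33.2 CPM, a log2 rise of 0.98 ± 0.14 (adjusted p = 0.000337, edgeR). Eif2ak2 went from 12.6, 13.8 and 11.5 CPM to 19.4, 19.9 and 27.9 CPM, by 0.83 ± 0.18, and Eif4a1 from 145, 146 and 144 CPM to 230, 206 and 220 CPM, by 0.60 ± 0.13. These 3 rises were kept with every library left out, and no TAC library overlapped sham. Groups were separate in either direction for 24 of the 54 genes and 42.1% of all genes. The other rises were Eif6 at 0.47 ± 0.15 and Eif4a3, a helicase of the exon junction complex, at 0.30 ± 0.09. Eif6 was lost without ctrl TAC 3 d replicate 3 (adjusted p = 0.126) and Eif4a3 without ctrl sham replicate 1 (0.0759, edgeR). Of the 6 fits with 1 library left out, Eif6 kept its call in 2 and Eif4a3 in 1.

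The genes that fell in ctrl hearts at TAC 3 d were Eif1 at -0.58 ± 0.16, Eif4ebp2 at -0.49 ± 0.14, Eif4a2 at -0.39 ± 0.14 and Eif3f at -0.32 ± 0.09. The helicase pair thus split, with Eif4a2 at 378, 371 and 370.5 CPM in sham and 273, 328 and 252 CPM at TAC 3 d while Eif4a1 rose. Each of the 4 falls was lost without ctrl TAC 3 d replicate 3, with adjusted p of 0.0517 for Eif1, 0.0932 for Eif4ebp2, 0.182 for Eif4a2 and 0.0733 for Eif3f (edgeR). Eif1 kept its call in 5 of 6 fits with 1 library left out, Eif4ebp2 in 4, Eif3f in 3 and Eif4a2 in 1. With library sizes in place of TMM, which moved the median of all genes by 0.23, the split of 5 higher and 4 lower became 17 higher and 1 lower. Eif1a, Eif2ak2 and Eif4a1 remained higher with either scaling. The fibroblast and dividing cell sums were higher and the cardiomyocyte sum lower than in sham, from 7.55 to 12.8 CPM in ctrl sham to 77.6 to 156 CPM for the 6 dividing cell markers, and their part was not tested.

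In cKO hearts at TAC 3 d, none of the 54 genes was called against sham, where 0% of all genes were (edgeR; 7 had an unadjusted p under 0.05, and DESeq2 called 0). Eif1a was at 15.7, 15.6 and 16.25 CPM in cKO sham and 15.4, 21.9 and 18.0 CPM at TAC 3 d, a difference of 0.22 ± 0.14. Eif2ak2 was at 16.4, 15.8 and 13.4 CPM and then 13.9, 12.5 and 15.6 CPM, a difference of -0.11 ± 0.18. In both genes the groups overlapped. Eif4a1 was at 153, 158 and 162 CPM in cKO sham and 148, 231 and 209 CPM at TAC 3 d, so that replicate 1 stood below all shams.

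Whether TAC acted differently in the 2 genotypes was tested directly by an interaction term. At 3 d no initiation factor was called, where 0.669% of all genes were (edgeR; 6 had an unadjusted p under 0.05, and DESeq2 called 2, Eif2ak2 among them). Eif2ak2 had the largest term, -0.94 ± 0.25, with adjusted p = 0.0772, and Eif1a followed with -0.77 ± 0.20 and adjusted p = 0.0736 (edgeR). A negative term means that the TAC rise was smaller in cKO than in ctrl hearts. For Eif2ak2 the adjusted p was 0.0196 with DESeq2, 0.0437 with library sizes and 0.00308 without the filter on low counts (edgeR for the last 2), and from 0.0272 to 0.182 with 1 library left out. Library sizes moved the median of all genes in this term by -0.26. At 7 d no initiation factor was called and 0% of all genes were (edgeR; none of the 54 had an unadjusted p under 0.05, and DESeq2 called 0).

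At TAC 7 d against sham, 2 genes rose and 1 fell in ctrl hearts, 5.56% where 7.29% of all genes were called. The dividing cell sum was 37.1 to 71.9 CPM at TAC 7 d against 7.55 to 12.8 CPM in sham, and its part was not tested. Eif1a, at 24.6, 20.4 and 23.7 CPM, was higher than sham by 0.64 ± 0.14 and Eif2ak2, at 16.9, 20.0 and 27.9 CPM, by 0.78 ± 0.18. Eif3f, at 117, 108 and 124 CPM against 142, 153 and 143 CPM in sham, was lower, with a log2 difference of -0.33 ± 0.09. Without ctrl sham replicate 1 the adjusted p was 0.0918 for Eif1a and 0.0837 for Eif2ak2, and without ctrl TAC 7 d replicate 2 it was 0.142 for Eif3f (edgeR). Of the 6 fits with 1 library left out, Eif1a kept its call in 4, Eif2ak2 in 3 and Eif3f in 1. With library sizes the split of 2 higher and 1 lower became 2 higher and 0 lower. The authors' deposited table lists 3 higher and 4 lower members in this comparison and adds Eif4a1 (adjusted p = 0.00218) among the higher and Eif1 (0.000452), Eif4a2 (0.00146) and Eif3m (0.0402) among the lower.

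In cKO hearts at TAC 7 d, 3 genes rose and 6 fell against sham, 16.7% where 21.8% of all genes were called. Marker sums moved between the same groups, with no overlap: fibroblasts from 734 to 922 CPM in sham to 1296 to 2141 CPM, macrophages from 136 to 152 CPM to 247 to 267 CPM, and dividing cells from 4.36 to 15.8 CPM to 23.5 to 68.4 CPM. The cardiomyocyte sum went from 59842 to 66661 CPM to 43760 to 56462 CPM, and the part of these sums was not tested. The risen genes had also risen in ctrl hearts at 3 d, with Eif1a from 15.7, 15.6 and 16.25 CPM to 26.1, 33.2 and 28.0 CPM (0.88 ± 0.14), Eif2ak2 by 0.70 ± 0.18 and Eif4a1 by 0.50 ± 0.13. Eif1 went from 414, 379 and 444 CPM to 261, 267 and 267 CPM, a log2 difference of -0.64 ± 0.16, and its call and that of Eif1a were kept with every library left out. The other falls were Eif4e at -0.57 ± 0.18, Eif4a2 at -0.53 ± 0.14, Eif4ebp2 at -0.49 ± 0.14, Eif3f at -0.35 ± 0.09 and Eif2a at -0.25 ± 0.08. Without cKO TAC 7 d replicate 2, which had the lowest mitochondrial share of its group, adjusted p was 0.135 for Eif4e, 0.0632 for Eif4a2, 0.101 for Eif4ebp2, 0.110 for Eif2a and 0.0946 for Eif4a1 (edgeR). Without cKO sham replicate 3 it was 0.0590 for Eif2ak2 and 0.0761 for Eif3f (edgeR). Of the 6 fits with 1 library left out, Eif2a kept its call in 0 and Eif4e and Eif4ebp2 in 2 each. Eif4a1 and Eif3f kept theirs in 4 each, and Eif4a2 and Eif2ak2 in 5 each. With library sizes in place of TMM, which moved the median of all genes by 0.13, the split of 3 higher and 6 lower became 12 higher and 1 lower. The cKO comparisons at 3 d and 7 d share the sham libraries, as do the ctrl ones, so their values are set side by side only.

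**Figure D5:**
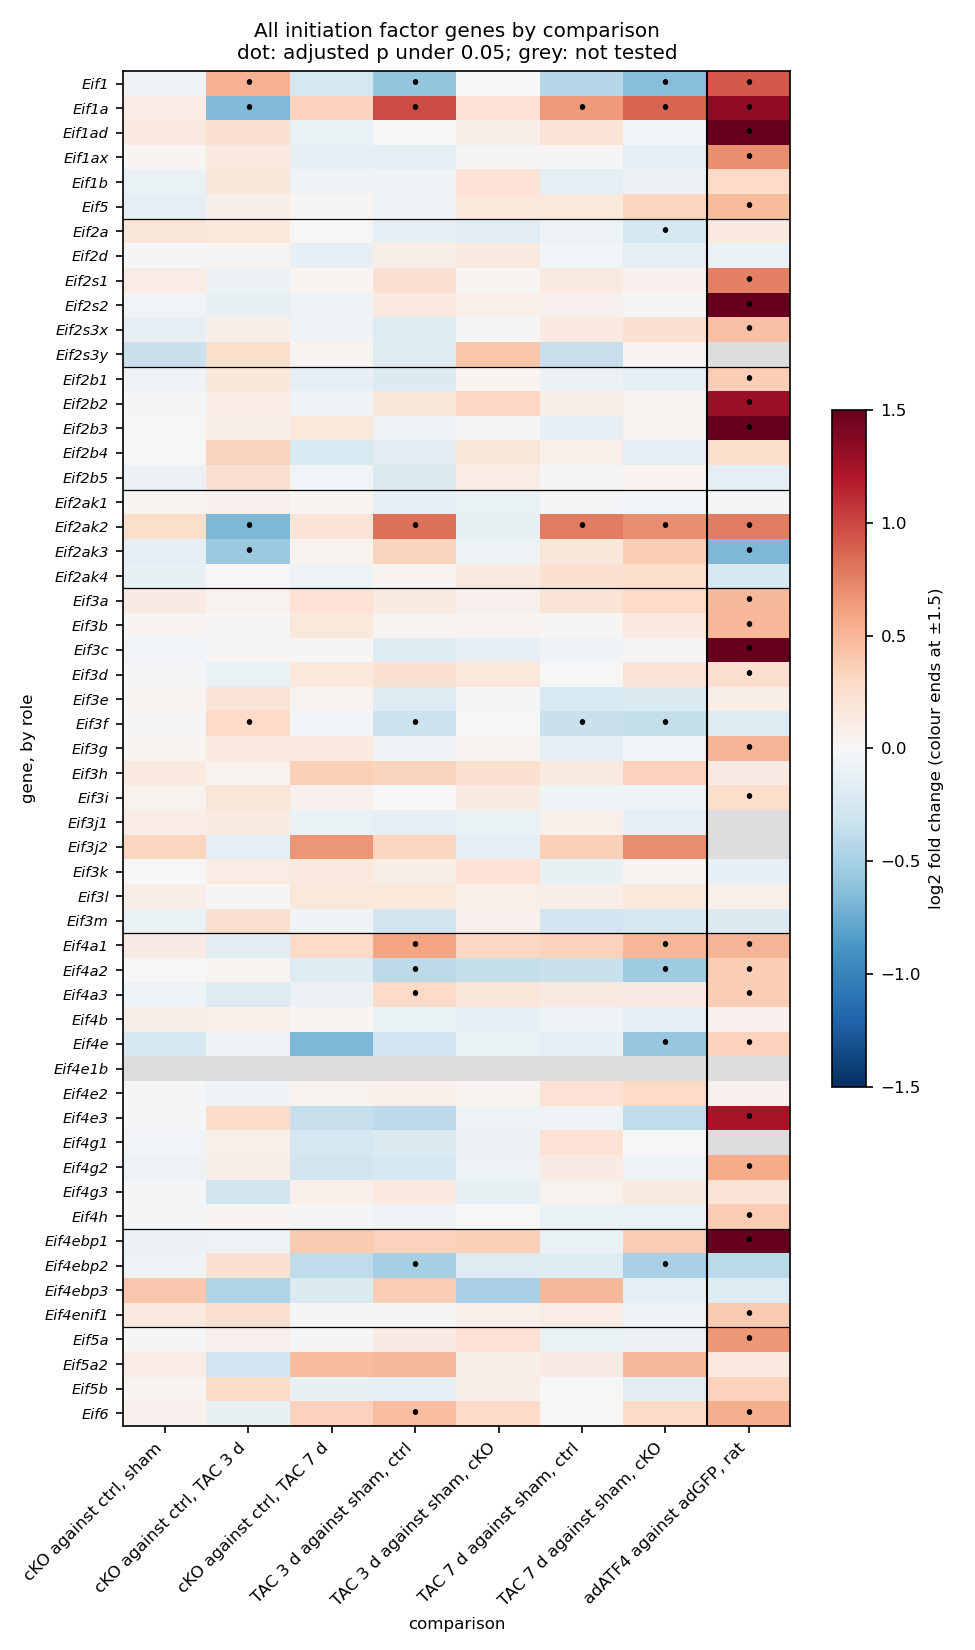
Log2 fold change of all 55 initiation factor genes (rows, by role) in 7 mouse heart comparisons and the rat comparison (columns), from blue for lower to red for higher with the colour ending at ±1.5; dots mark an adjusted p under 0.05 and grey a gene that was not tested. The rat column is mostly red, with 29 genes higher, while the column of cKO against ctrl in sham hearts is pale and has no dot.

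Genes that work beside the initiation factors were described by lists that do not overlap them. In the rat cells, 6 of 15 elongation and release factor genes rose and 1 fell, with a median log2 fold of 0.27. Of 10 genes for eIF2 alpha phosphatases and kinase partners, 4 rose and 1 fell (median 0.02), and of 19 genes for cap complex partners and the mTORC1 arm, 6 rose and 5 fell (median -0.03). Over all rat genes tested, 24.2% were called higher and 26.4% lower, so these counts are given as a description of the lists only. The genes named next were picked after their values were seen, from among the largest changes of their lists. Sesn2, a brake on mTORC1, went from 18.6, 16.7 and 11.5 FPKM to 90.1, 100.3 and 83.6 FPKM, a log2 rise of 2.50 ± 0.16. Ppp1r15a, or GADD34, which brings the phosphatase to eIF2 alpha, went from 45.4, 38.6 and 33.3 FPKM to 106, 116 and 103 FPKM, a rise of 1.46 ± 0.12. Eef2k, the kinase that slows elongation, went from 24.7, 26.0 and 28.8 FPKM to 9.59, 14.98 and 9.07 FPKM, a log2 difference of -1.20 ± 0.18.

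Between genotypes, none of the genes of these lists was called in sham or TAC 7 d hearts, where 0.0193% and 0.257% of all genes were. In TAC 3 d hearts the lists gave 1 of 15 higher, 1 of 11 higher, and 3 of 21 higher with 1 lower, where 17.1% of all genes were called. The lower one was Pabpc1, the poly(A)-binding protein that joins the mRNA tail to eIF4G, at 165, 142 and 198 CPM in ctrl and 98.2, 113 and 115 CPM in cKO hearts. The groups did not overlap and the log2 difference was -0.63 ± 0.11 (adjusted p = 0.00285, edgeR). Pabpc1 also had the single called interaction term of these lists at 3 d, -0.84 ± 0.16 (adjusted p = 0.0425, edgeR), having risen in ctrl hearts from 95.9, 93.4 and 95.2 CPM in sham.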

How the data were processed

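Per the labels' protocols, RNA was extracted with a Zymo kit and libraries were made with the Illumina TruSeq RNA kit. Bowtie 0.12.2 and mm9 appear, with no role stated, per the submitters' processing notes, and no source used here names the counter. The authors deposited whole-number counts per gene for 18 mouse hearts, with a table of log2 fold and adjusted p-value per gene in 5 of the comparisons, and FPKM values for 6 rat libraries. In the rat tables, 6 columns that match no sample and 26 gene names turned into dates were not used. The depth behind the FPKM values is unknown.

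From the counts, edgeR 4.0.16 (R 4.3.3; filterByExpr, TMM, quasi-likelihood test, 1 model of 6 groups, 15535 genes) gave log2 fold changes; SE is the fold divided by the square root of F. CPM are TMM-scaled. From FPKM, limma 3.58.1 with a trend tested log2(FPKM + 1) for the 10571 genes that reached 1 FPKM in 3 or more libraries; such folds understate changes of low genes. A call is a Benjamini-Hochberg adjusted p under 0.05, two-sided, over all genes tested. DESeq2 1.42.0 was an alternative. Where a call is said to be lost without 1 library, leaving out that library gave the highest adjusted p. Leaving out others can lose the same call. The scripts were tested on simulated data. Promoter windows come from RefSeq (GRCm38.p6) and matched 43 of the 55 genes by symbol.

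Genes and lists were chosen with earlier results of these data known. Genes named with values are those called between genotypes or in the rat cells (up to 12 by smallest p), the largest 8 per direction after TAC, the 5 highest and 5 lowest levels, and always Eif4ebp1, Eif2s1, Eif4e, the kinases and the eIF2B subunits. Same-numbered libraries were checked for pairing: in no comparison did all 3 same-numbered pairs correlate above 0.1 in their deviations, so the numbers were not taken as pairs.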

Additional observations from a re-analysis of the deposited data

How the results depend on the processing

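Counts of called initiation factors kept within 1.5 times their main value under most alternatives. This includes comparisons with a main count of 0, where 0 under an alternative counted as kept. Between genotypes at TAC 3 d, the 5 calls became 8 with library sizes, 0 with only the groups compared, 1 without both TAC 3 d libraries that lie apart (ctrl replicate 3 and cKO replicate 2), and 1 to 9 with 1 library left out. At TAC 7 d, 0 became 1 with DESeq2 and 1 without the filter. For the 3 d interaction, 0 became 2 with DESeq2, 2 with library sizes, 2 without the filter and 0 to 2 with 1 library left out. For TAC 3 d in ctrl hearts, 9 became 18 with library sizes, 4 with only the groups compared and 4 to 9 with 1 library left out. For TAC 7 d, 3 became 7 in ctrl hearts with only the groups compared and 0 to 2 with 1 library left out, and 9 became 3 to 9 in cKO hearts with 1 library left out. The rat count of 30 ranged from 23 to 33. The cause of these moves was not tested. With the replicate number as a block the counts were 5 and 0 between genotypes at TAC 3 d and 7 d, 8 and 2 for TAC in ctrl hearts, 0 and 9 in cKO hearts, 0 in sham and both interactions, and 30 in the rat cells; the libraries share only a number. Of the values of single named genes under alternatives, 1945 kept direction and side of the threshold, 113 lost the call, 15 gained it and none changed direction as a called gene. The 1945 include genes that were not called in the main fit and so had no call to lose. Among called genes, 1 of 5 between genotypes at TAC 3 d and 22 of 30 in rat cells survived the loss of any single library. Against sham in ctrl hearts, 3 of 9 survived at TAC 3 d and 0 of 3 at TAC 7 d. In cKO hearts at TAC 7 d, 2 of 9 did. With 3 libraries a group, small fold changes are hard to tell from the spread between libraries. FPKM give no depth, so no counting error is stated for the rat values.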
